A study of Mus musculus with 24 samples.

Results

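Expression was compared in the anterior cingulate cortex, an area of the cerebral cortex that takes part in weighing effort against reward, between trained mice labelled Thbs1/2 KO and untrained mice labelled wild type (WT). The comparison was chosen by the labels for genotype and training and holds 16 of the 24 bulk RNA libraries of the series, 8 in each arm, with 4 females and 4 males per arm. The remaining 8 libraries, from untrained mice labelled Thbs1/2 KO, are set beside it without a test, to show where along the way a difference was already present. None of the 24 libraries came from trained mice labelled WT, so training could not be followed under that genotype label. The arms thus differed in genotype label, in operant training and in food access at once. All mice were kept on a 12/12 h light cycle with free food until training, when the trained animals were food deprived, and tissue was taken no later than 1 hour after behaviour ended, per the labels and the series' design text. Food deprivation and training cannot be told apart. Age, strain, the knockout alleles and the way the mice were made are not given in the sources used here. Each library came from the whole anterior cingulate cortex, so that fewer cells of a type and less RNA per cell cannot be told apart.

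Both targeted genes ran against the genotype labels, so the text speaks of arms labelled KO or WT, and every direction below rests on those labels. Thbs1 (chr2:118111876-118127133, GRCm38), which encodes a secreted thrombospondin, ranged from 0.254 to 0.716 FPKM (fragments per kilobase of gene, scaled to library size; median 0.518) in the arm labelled WT. It ranged from 3.62 to 5.91 FPKM (median 4.45) in the trained arm labelled KO. Thbs2 (chr17:14665500-14694262), its close relative, was also higher in every trained library than in any library labelled WT, with a log2 difference of 0.51. The sex labels matched the X- and Y-linked genes in all 24 libraries. Recovered depth was 16719068 to 20311584 reads in the trained arm and 12875026 to 19876576 in the arm labelled WT. The ribosomal RNA transcript Rn45s, which poly(A) selection should deplete, ranged from 213.2 to 3763 FPKM in the trained arm and from 141.7 to 1002 FPKM in the arm labelled WT. Animal numbers over 1000 were carried by all 8 trained animals, by 1 of 8 labelled WT (male 1) and by 2 of 8 untrained animals labelled KO (males 1 and 2). The labels do not say what the number stands for. One library stood apart: untrained male 3 labelled KO had the most reads (27156301) and a summed level of cortical layer markers of 443.3 FPKM, against 891.5 to 1129 FPKM in the others. Its striatal markers summed to 1180 FPKM (others 259.2 to 655.4) and its septal markers to 168.6 FPKM (others 27.86 to 47.22). It is outside the 16 libraries tested. Ranges and medians of the untrained arm labelled KO below include it, and where leaving it out moves one, the value over the 7 others of the arm follows in brackets.

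Neurons that have just been active switch on immediate-early genes, many of them transcription factors, which in turn switch on secreted and synaptic proteins over the following hours. Cells that fold more protein than their chaperones can serve switch on chaperone genes, in the endoplasmic reticulum through the unfolded protein response and in the cytosol through heat shock factor. Cells short of cholesterol switch on the synthesis and uptake of sterols through the SREBP factors, and sterol supply turns those genes down. Thrombospondins made by astrocytes are known as signals for the formation of excitatory synapses in developing cortex.

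Of 12572 genes tested, 3074 (24.5%) differed between the trained arm labelled KO and the untrained arm labelled WT (limma, Benjamini-Hochberg adjusted p under 0.05). Of these, 1626 (12.9% of genes tested) were higher and 1448 (11.5%) were lower in the trained arm. The higher set held genes of protein folding, neuronal activity, ribosomes, respiration and the proteasome. The lower set held genes of sterol synthesis, zinc finger proteins, ion channels, glutamate receptors, adhesion proteins and extracellular matrix. Most differences were small. The median log2 difference was 0.22 among the higher genes and -0.23 among the lower ones, and 11 higher and 4 lower genes reached 1 on that scale. With all libraries scaled to an equal sum of FPKM, which moves the median of all genes from 0.00 to -0.03, the split was 1095 higher and 2112 lower. Direction was shared by females and males for 1621 of the 1626 higher and 1441 of the 1448 lower genes. It was also shared for 5267 of the 9498 genes not called. Both sexes entered the fit that made the calls, so a shared direction was favoured in advance and is no replication. The libraries of the arms did not overlap at all for 391 genes (3.11%), 207 (1.65%) with every trained library above every library labelled WT and 184 (1.46%) the other way round. When animal number over 1000 entered a fit of all 24 libraries as a covariate, 352 genes (2.8%) were called, 167 (1.33%) higher and 185 (1.47%) lower. In that fit standard errors were 1.7 times as large in the median, since number and training overlap.

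**Figure D1:**
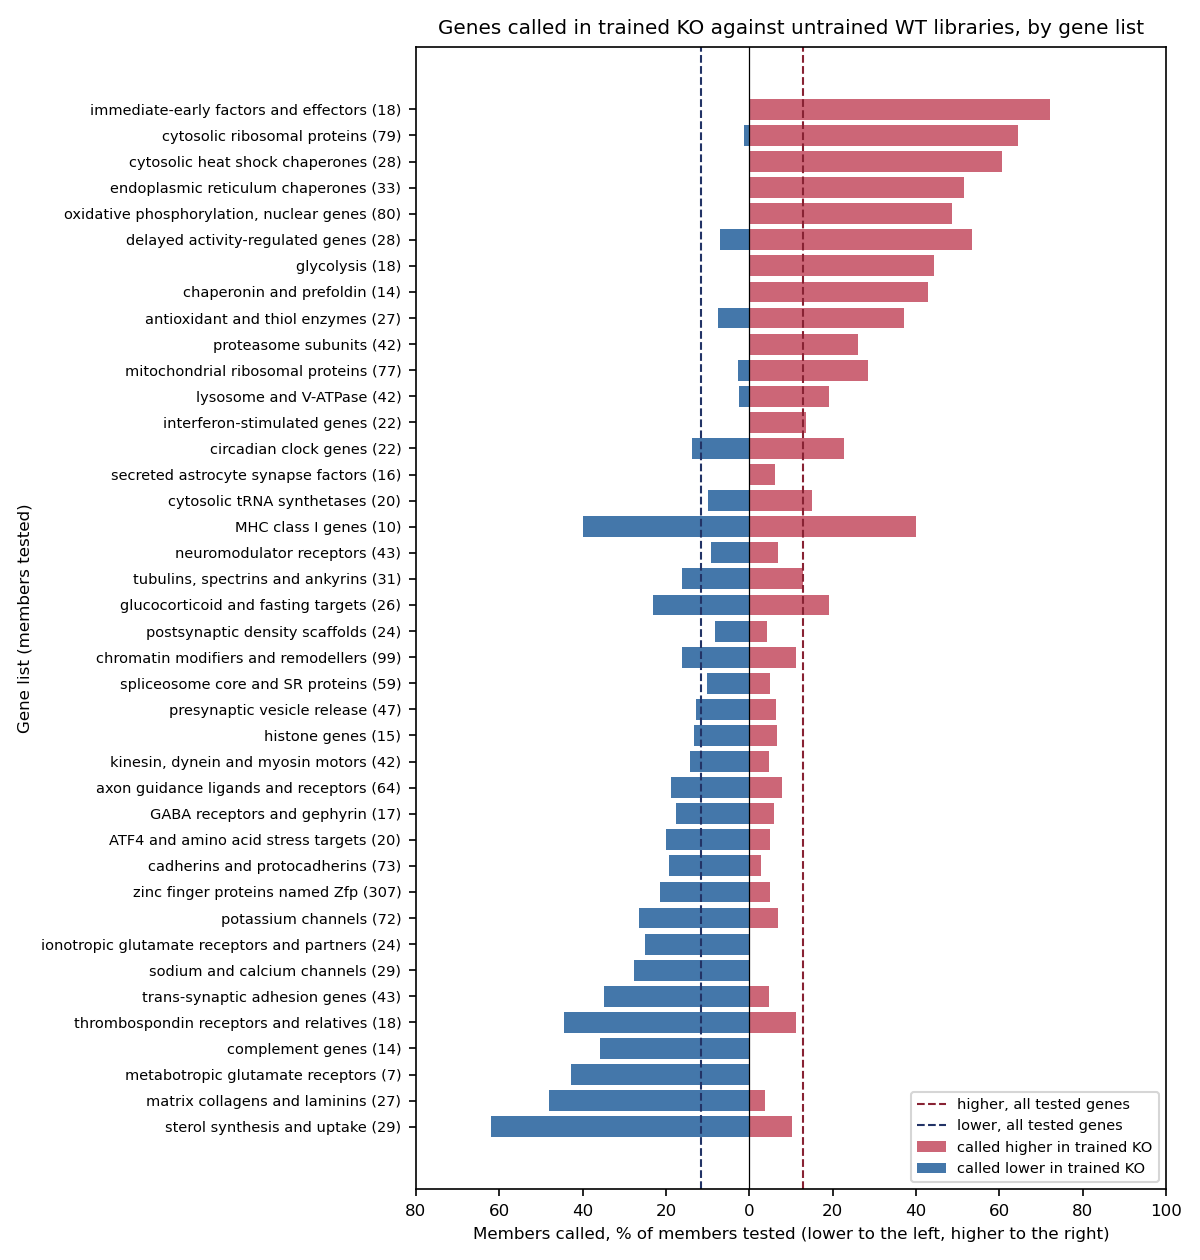
Share of the tested members of each gene list called higher or lower in the trained arm labelled KO than in the untrained arm labelled WT (percent, horizontal axis; limma, adjusted p under 0.05), 1 row per list, with dashed lines at the shares over all genes tested (12.9% higher, 11.5% lower). Immediate-early genes, cytosolic ribosomal proteins and both chaperone lists reach far beyond the line to the higher side, and sterol genes and collagens to the lower side.

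The 2 sets differed in the length of their genes. Genes called higher had a median length of 2301 bases and genes called lower 3808 bases, against 3015 among genes not called. Among the 1258 shortest genes (30 to 1172 bases) 23.8% were higher and 5.48% lower, with a median log2 difference of 0.07. Among the 1257 longest (6546 to 30001 bases) 4.38% were higher and 20.8% lower, with a median of -0.05. Median GC content was 51.14% in the higher set and 47.44% in the lower set. Across genes, which are not independent replicates, Spearman's rho of the log2 difference was -0.204 with length and 0.145 with GC content. GC content was known for 12118 of the 12572 genes tested, and only these entered the second value. After each library was corrected for GC content and length, 27.7% of genes were called, 14% higher and 13.7% lower. Whether length or RNA quality contributed to the differences was not tested beyond that.

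**Figure D2:**
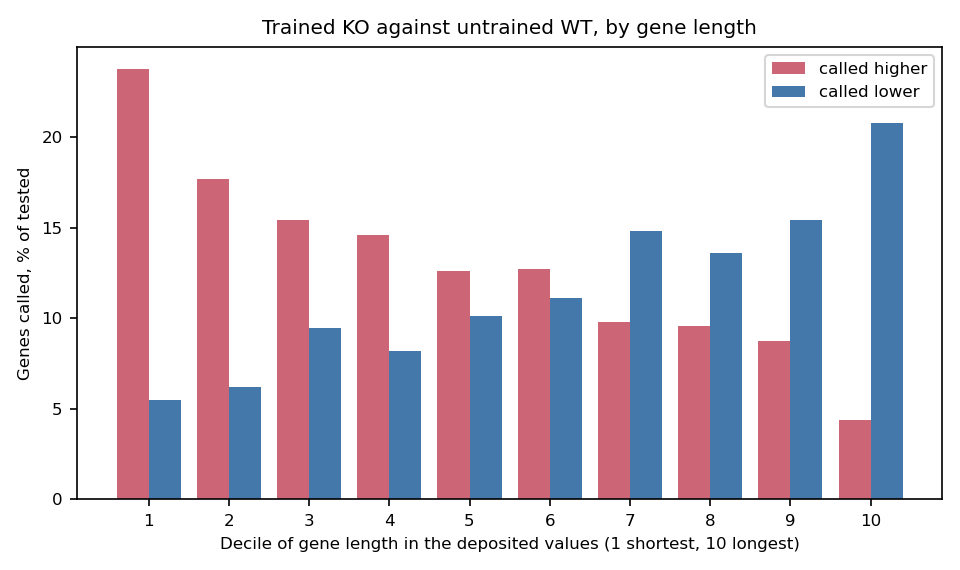
Percent of genes called higher or lower in the trained arm labelled KO (vertical axis) in 10 bins of gene length from the shortest to the longest (horizontal axis, 1257 or 1258 genes each). The share called higher falls from 23.8% in the shortest bin to 4.38% in the longest, and the share called lower climbs from 5.48% to 20.8%.

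Chaperones of the endoplasmic reticulum were a prominent group on the higher side. Several of them share a promoter sequence, shown here because Hspa5, the central gene of the group, and 5 other called genes carry it. The endoplasmic reticulum stress element, bound by NF-Y together with ATF6 or XBP1, reads CCAAT, then 9 bases of any kind, then CCACG. It was searched on both strands in the 250 bases before the start of each gene (RefSeq, GRCm38.p6, 9568 tested genes matched). The element stood in 8 of 26 promoters of the list (30.8%) and in 14 of 9568 promoters in all (0.146%). Many of these genes are textbook targets of the element, so the match describes the list and is not a test. In the windows below, written 5′ to 3′ along each gene's strand, capitals mark the element, which appears as CGTGG, 9 bases, ATTGG where it lies on the opposite strand.
Hspa5: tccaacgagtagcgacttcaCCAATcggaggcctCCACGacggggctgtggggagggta
Pdia6: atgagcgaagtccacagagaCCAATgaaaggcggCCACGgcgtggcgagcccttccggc
Creld2: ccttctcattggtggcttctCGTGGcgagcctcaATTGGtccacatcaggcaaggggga
Calr: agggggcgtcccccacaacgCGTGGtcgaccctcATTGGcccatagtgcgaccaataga
Dnajc3: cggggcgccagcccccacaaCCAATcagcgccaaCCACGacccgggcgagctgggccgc
Hsp90b1: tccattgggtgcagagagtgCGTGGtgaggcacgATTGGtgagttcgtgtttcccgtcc
Canx: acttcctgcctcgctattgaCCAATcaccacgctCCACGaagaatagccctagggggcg
Syvn1: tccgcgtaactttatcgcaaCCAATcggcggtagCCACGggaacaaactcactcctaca
The windows lie at Hspa5 at chr2:34772005-34772063 (+ strand), Pdia6 at chr12:17266471-17266529 (+ strand), Creld2 at chr15:88819500-88819558 (+ strand), Calr at chr8:84847055-84847113 (- strand), Dnajc3 at chr14:118937807-118937865 (+ strand), Hsp90b1 at chr10:86705513-86705571 (- strand), Canx at chr11:50325780-50325838 (- strand) and Syvn1 at chr19:6046512-6046570 (+ strand). The first base of the element lay 44 to 162 bases before the annotated start. The promoter of Hsp90b1 holds a further match outside the window.

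Of 33 tested genes of the endoplasmic reticulum list, 17 were higher and 0 lower in the trained arm, with a median log2 difference of 0.15 against 0.00 for all genes. Hspa5, which encodes BiP, the main chaperone of the compartment, ranged from 70.96 to 125.9 FPKM (median 80.51) in the arm labelled WT and from 128.6 to 165.3 FPKM (median 137.2) in the trained arm. The arms did not overlap, and the untrained arm labelled KO (81.25 to 113.8 FPKM, median 86.15 [87.12]) lay with the arm labelled WT. Its log2 difference was 0.72 ± 0.0982 (SE, adjusted p = 7.96e-05). Sdf2l1, a partner of BiP, ranged from 3.89 to 9.23 FPKM (median 4.66) in the arm labelled WT and from 8.23 to 15.7 FPKM (median 11.2) in the trained arm. Only the library of WT female 4 reached into the trained range. The log2 difference of Sdf2l1 was 1.02 ± 0.129 (SE, adjusted p = 5.21e-05), the highest of the list. The protein disulfide isomerase Pdia4 ranged from 11.5 to 22.4 FPKM in the arm labelled WT and from 24.4 to 31.0 FPKM in the trained arm (log2 0.81). Its relative Pdia6 differed by 0.57 and also showed no overlap.

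Of the 33 members 16 were not called, and the called ones named next differed by 0.15 to 0.69. Creld2 (log2 0.69) and Manf (0.63), secreted proteins induced by stress of the compartment, were above every library labelled WT in all 8 trained libraries. So was Xbp1, a transcription factor of the response, at 47.24 to 54.29 FPKM against 28.58 to 42.96 FPKM (log2 0.59, adjusted p = 9.27e-06). The untrained arm labelled KO had medians of 8.24 [8.396] FPKM for Creld2, 13.3 [14.05] FPKM for Manf and 37.8 [39.02] FPKM for Xbp1, against 7.71, 13.02 and 33.7 FPKM in the arm labelled WT. Among carriers of the element outside the rule for named genes, Calr, a lectin chaperone, differed by 0.36 (adjusted p = 0.00027). Dnajc3, a co-chaperone of BiP, differed by 0.43 (adjusted p = 0.000681). Hsp90b1, the Hsp90 of the compartment, differed by 0.15 (adjusted p = 0.0261), with 1 of 8 trained libraries above every library labelled WT. It was not called with equal-sum scaling (adjusted p = 0.129) or quantile normalization (0.297), nor when any of 4 libraries was left out (adjusted p = 0.0525 to 0.0554; trained female 1 and male 1, WT male 4 and female 3). Carriage of the element did not imply a call. Canx, the membrane-bound lectin chaperone, differed by 0.02 (adjusted p = 0.761) and Syvn1, the ubiquitin ligase HRD1, by 0.11 (adjusted p = 0.209).

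The list kept its direction under the other settings described here, with 2 genes as the exception. It had 20 members higher and 0 lower after GC and length correction, and 14 higher and 2 lower with equal-sum scaling. With animal number as a covariate 11 were higher and 0 lower, and in males alone 10 were higher. As each library was left out, 14 to 19 were higher and 0 lower, except that 1 was lower without WT male 4. The animal labelled WT with a number over 1000 had 77.79 FPKM of Hspa5 and 4.87 FPKM of Sdf2l1, within the 70.96 to 125.9 and 3.89 to 9.23 FPKM of the 7 others. The 2 untrained animals labelled KO with such numbers had 81.25 and 91.02 FPKM of Hspa5. Between untrained arms the median difference of the list was 0.03, and from the untrained to the trained arm labelled KO it was 0.16. Without the untrained library that stood apart these were 0.03 and 0.13.

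Genes of the ATF4 branch of the stress response gave a mixed picture. Of 20 targets of ATF4, the factor that answers amino acid shortage, 1 was higher and 4 were lower, with a median of -0.04. The count of higher ones reached 3 without trained male 2 and 2 without any of 5 other libraries. The single higher gene was Ddit3, which encodes the transcription factor CHOP (23.22 to 29.86 FPKM against 14.30 to 20.95 FPKM, log2 0.52, adjusted p = 4.73e-05). Ddit4, an inhibitor of mTORC1 signalling, was lower in every trained library than in any labelled WT (7.76 to 14.2 FPKM against 14.9 to 18.5 FPKM, log2 -0.59). Slc7a5, a transporter of large neutral amino acids, was also lower (log2 -0.25, adjusted p = 0.00814).

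Cytosolic chaperones were higher as well. Of 28 tested genes of the heat shock list, 17 were higher and 0 lower, with a median log2 difference of 0.21. Heat shock elements are built of GAA units facing in alternate directions, and the pair GAANNTTC was searched in the same promoters. It stood in 8 of 23 promoters of this list (34.8%) and in 581 of 9568 in all (6.07%). The carriers are not all separate sites, since Hspe1 and Hspd1 share the same match and Hspa1a and Hspa1b have identical windows. As for the element above, the match describes the list and is not a test. The windows of 4 carriers are shown because they span large, small and uncalled differences, with capitals on each match.
Hspb1: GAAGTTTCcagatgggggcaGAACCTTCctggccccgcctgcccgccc
Hspa1b: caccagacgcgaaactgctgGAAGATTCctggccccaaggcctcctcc
Hspe1: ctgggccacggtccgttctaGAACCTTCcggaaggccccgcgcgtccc
Dnaja1: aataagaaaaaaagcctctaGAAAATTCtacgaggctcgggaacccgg
These windows lie at Hspb1 at chr5:135887802-135887849 (+ strand), Hspa1b at chr17:34959315-34959362 (- strand), Hspe1 at chr1:55088044-55088091 (+ strand) and Dnaja1 at chr4:40722324-40722371 (+ strand). Hspb1, with 2 matches, encodes the small heat shock protein HSP27. It ranged from 0.621 to 4.06 FPKM (median 2.36) in the arm labelled WT and from 4.34 to 7.74 FPKM (median 5.61) in the trained arm, with no overlap. Its median in the untrained arm labelled KO was 2.19 [2.00] FPKM. The log2 difference was 1.03 ± 0.161 (SE, adjusted p = 0.000293). Hspa1b, an inducible Hsp70 whose near-identical copy Hspa1a makes the assignment of reads uncertain, differed by 0.66 (adjusted p = 0.00276), with 3 of 8 trained libraries above all those labelled WT. Hspe1, the mitochondrial co-chaperonin, differed by 0.21 (adjusted p = 0.0087). Dnaja1, an Hsp40, differed by 0.09 and was not called (adjusted p = 0.267). Hspa1b, Hspe1 and Dnaja1 were named for their motif.

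Hspa8 and partners of Hsp70 were higher too. Hspa8, the constitutive Hsp70 and one of the most abundant chaperone transcripts, ranged from 642.5 to 774.6 FPKM in the arm labelled WT and from 852.4 to 925.5 FPKM in the trained arm (log2 0.31). Dnajb1, the Hsp40 that stimulates it, ranged from 17.05 to 24.24 FPKM and from 28.53 to 34.28 FPKM (log2 0.56, adjusted p = 4.73e-06). Stip1, which links Hsp70 to Hsp90, differed by 0.42, and Hsph1, the nucleotide exchange partner of Hsp70, by 0.39. For Hspa8, Dnajb1, Stip1 and Hsph1 all 8 trained libraries were above every library labelled WT. The median of the untrained arm labelled KO was 744.3 [752.6] FPKM for Hspa8 and 22.45 [23.12] FPKM for Dnajb1, against 726.5 and 21.71 FPKM in the arm labelled WT. Between untrained arms the median difference of the list was 0.00, and the step from the untrained to the trained arm labelled KO was 0.26 (0.25 without the library that stood apart). The animal labelled WT with a number over 1000 had 21.94 FPKM of Dnajb1 and 1.86 FPKM of Hspb1, within the 7 others. Counts were 20 higher and 0 lower after GC and length correction, 5 higher and 0 lower with animal number as a covariate, and 16 to 18 higher as each library was left out.

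Genes of neuronal activity were higher. Of 18 tested immediate-early factors and effectors, 13 were higher and 0 lower, with a median log2 difference of 0.53, and 12 or 13 were higher as each library was left out. Arc, which acts at synapses in the endocytosis of AMPA receptors, ranged from 82.47 to 187.6 FPKM (median 109.6) in the arm labelled WT and from 151.6 to 245.6 FPKM (median 202.3) in the trained arm. In 6 of 8 trained libraries it lay above all those labelled WT. The log2 difference was 0.78 ± 0.13 (SE, adjusted p = 0.000517). Nr4a2, an orphan nuclear receptor, differed by 0.88, Fosb by 0.74 and Fosl2 by 0.74, the last 2 being subunits of AP-1. Nr4a3 differed by 0.71 and the zinc finger factor Egr3 by 0.64, and all 5 of these had every trained library above every one labelled WT. The 5 members that were not called had differences from 0.03 (Ier2) to 0.33 (Egr4).

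Many of these genes were also high in the animal labelled WT with a number over 1000. It lay above all 7 others of its arm in 12 of the 18 genes, and in 15.2% of all genes tested. It had 187.6 FPKM of Arc, against 82.47 to 136.2 FPKM in the 7 others, and 7.84 FPKM of Fosb against 4.38 to 6.86 FPKM. The 2 untrained animals labelled KO with such numbers had 187.3 and 194.4 FPKM of Arc and 8.82 and 13.6 FPKM of Fosb. The 6 others had 45.39 [56.05] to 195.5 FPKM of Arc and 5.07 to 8.02 FPKM of Fosb. For Nr4a2, Nr4a3 and Egr3 the animal labelled WT with a number over 1000 lay inside the range of the 7 others, for example at 49.7 FPKM of Egr3 against 28.21 to 52.67 FPKM. With animal number as a covariate none of the 18 genes was called, the median was -0.07 and Arc had a log2 difference of -0.15. The difference in these genes between the arms and the difference between animal numbers cannot be told apart for females, which had no untrained animal with a number over 1000.

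Delayed activity-regulated genes followed the same direction in part. Of 28 tested, 15 were higher and 2 lower, with a median of 0.22, and 0 were called in either direction with animal number as a covariate. Nptx2, a secreted pentraxin that gathers AMPA receptors, ranged from 17.12 to 20.22 FPKM (median 18.97) in the arm labelled WT and from 22.87 to 33.62 FPKM (median 28.87) in the trained arm. The arms did not overlap (log2 0.56, adjusted p = 1.02e-05), while the untrained arm labelled KO spread from 9.75 [15.82] to 23.5 FPKM. Bdnf, a neurotrophin, ranged from 3.07 to 5.29 FPKM and from 6.10 to 8.53 FPKM (log2 0.59). Its gene lies on chromosome 2, within 10 Mb of Thbs1. Pcsk1, a protease that matures neuropeptides, differed by 0.70, and Homer1, a postsynaptic scaffold, by 0.46. Rasl11b, a small GTPase, was lower (log2 -0.33, adjusted p = 0.00453). The animal labelled WT with a number over 1000 had 20.22 FPKM of Nptx2, the highest of its arm (others 17.12 to 19.54), and 5.12 FPKM of Bdnf (others 3.07 to 5.29).

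The cyclic AMP response element TGACGTCA, bound by CREB, was searched in the promoters of both activity lists and stood in 4 of 20 delayed genes (20%), 1 of 14 immediate-early genes and 307 of 9568 in all (3.21%). Here too the match describes the lists and is not a test. The 4 delayed genes are shown because they include a called secretory pair, a called phosphatase and an uncalled kinase, with capitals on the element.
Pcsk1: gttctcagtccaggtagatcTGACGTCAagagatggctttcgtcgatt
Scg2: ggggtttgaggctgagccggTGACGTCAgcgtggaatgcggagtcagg
Dusp1: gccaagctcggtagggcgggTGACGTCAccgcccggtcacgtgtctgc
Plk2: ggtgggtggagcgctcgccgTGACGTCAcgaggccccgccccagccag
These windows lie at Pcsk1 at chr13:75089759-75089806 (+ strand), Scg2 at chr1:79440067-79440114 (- strand), Dusp1 at chr17:26508588-26508635 (- strand) and Plk2 at chr13:110394962-110395009 (+ strand). Pcsk1 ranged from 13.43 to 25.65 FPKM in the arm labelled WT and from 25.66 to 40.12 FPKM in the trained arm. Scg2, a secretogranin of dense-core vesicles, differed by 0.30 (adjusted p = 0.000889), and for both Pcsk1 and Scg2 every trained library lay above every one labelled WT. Dusp1, a phosphatase of MAP kinases, differed by 0.43 (adjusted p = 0.0252; 0.0517 without trained female 4), and Plk2, a polo-like kinase, by 0.07 (adjusted p = 0.20). Dusp1 and Plk2 were named for the motif. Dusp6, a phosphatase of ERK without the element, differed by 0.38 (adjusted p = 0.00138).

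**Figure D3:**
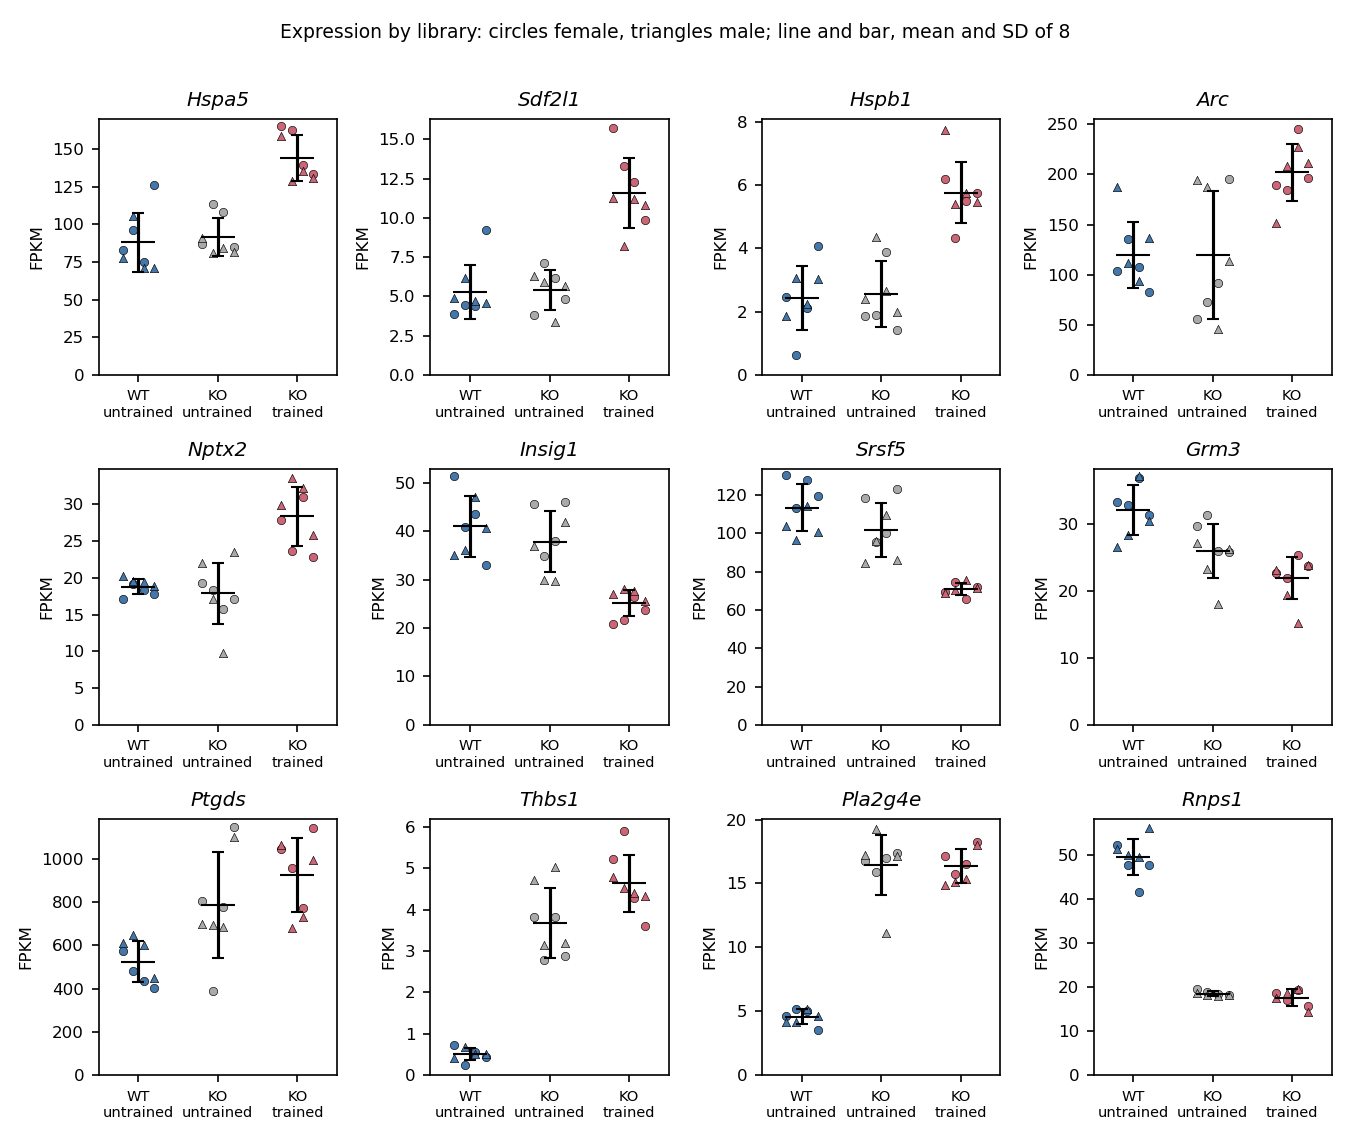
FPKM (vertical axes, linear, from 0) of 12 genes in each of the 24 libraries, in 3 arms of 8 (from left to right labelled WT untrained, KO untrained, KO trained), with circles for females, triangles for males and bars for the mean and SD. Hspa5, Sdf2l1, Hspb1 and Nptx2 are high mainly in the trained arm, Insig1, Srsf5 and Grm3 are low there, and Thbs1, Pla2g4e and Rnps1 differ alike in both arms labelled KO.

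Sterol genes were lower. Of 29 tested genes of sterol synthesis and uptake, 18 were lower and 3 higher, with a median log2 difference of -0.20. As each library was left out 15 to 19 were lower, and 1 was higher without WT male 3. Insig1, which holds the SREBP complex in the endoplasmic reticulum, ranged from 33.11 to 51.35 FPKM (median 40.76) in the arm labelled WT and from 20.93 to 28.13 FPKM (median 25.97) in the trained arm. The arms did not overlap, the untrained arm labelled KO had a median of 37.44 [37.9] FPKM, and the log2 difference was -0.68 ± 0.0833 (SE, adjusted p = 4.01e-05). Lss, which closes the sterol ring, differed by -0.44, and Stard4, a cholesterol carrier, by -0.43, both without overlap. Hmgcs1, an early enzyme of the pathway, had a median of 120.3 FPKM in the arm labelled WT, 99.89 [105.2] in the untrained arm labelled KO and 80.76 in the trained arm (log2 -0.45, adjusted p = 0.00105). Against the direction of the list, Ebp, a late sterol isomerase, was higher (log2 0.34, adjusted p = 0.000927).

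The sterol list kept its direction under most settings and lost its calls under the adjustment for animal number. It had 21 lower and 3 higher members after GC and length correction, 20 lower and 1 higher with equal-sum scaling, and none in either direction with animal number as a covariate. The animal labelled WT with a number over 1000 lay below all 7 others of its arm in 12 of the 29 genes and above them in 0. Over all genes tested the shares were 11.2% below and 15.2% above. That animal had 84.45 FPKM of Hmgcs1 (others 97.32 to 137), and Lss and Stard4 were also lowest in it. Its Insig1, at 35.13 FPKM, was inside the 33.11 to 51.35 FPKM of the 7 others. The 2 untrained animals labelled KO with such numbers had 29.96 and 36.99 FPKM of Insig1. With the covariate the log2 difference of Insig1 was -0.47 (adjusted p = 0.0852). Between untrained arms the list's median was -0.06, and from untrained to trained it was -0.15 (-0.02 and -0.17 without the library that stood apart).

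Genes of protein synthesis and energy supply were slightly higher. Of 79 cytosolic ribosomal protein genes, 51 were higher and 1 lower, with a median of 0.18. Rpl37a ranged from 129.8 to 177.2 FPKM in the arm labelled WT and from 186.0 to 224.7 FPKM in the trained arm (log2 0.35), and Rpl23a and Rps25 differed by 0.32 and 0.25, also without overlap. Such genes have many processed copies in the genome, so single values are uncertain. Of 80 nuclear genes of oxidative phosphorylation, 39 were higher and 0 lower, with a median of 0.14. Atp5j2, a subunit of ATP synthase, ranged from 123.7 to 186.3 FPKM and from 198.2 to 218.4 FPKM (log2 0.42, adjusted p = 8.01e-05). Uqcrh of respiratory complex III differed by 0.28 and Cox7a2 of complex IV by 0.23, and in both the arms did not overlap. Of 77 mitochondrial ribosomal genes, 22 were higher and 2 lower, among them Mrpl24 (log2 0.29).

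These are mostly short genes, and their counts shrank with the GC and length correction. It left 36 higher and 4 lower cytosolic ribosomal genes, 24 higher and 3 lower respiratory genes, and 13 higher and 7 lower mitochondrial ribosomal genes. With animal number as a covariate the counts were 6, 3 and 0 higher with 0 lower. The animal labelled WT with a number over 1000 lay above all 7 others of its arm in 44 of the 79 cytosolic ribosomal genes. It did so in 38 of the 80 respiratory, 20 of the 77 mitochondrial ribosomal and 10 of the 18 glycolysis genes. The share over all genes tested was 15.2%. It lay below the 7 others in 1, 1, 4 and 0 genes of these lists. Part of the difference was already there in untrained mice: the median of the cytosolic ribosomal list was 0.07 between untrained arms and 0.13 from untrained to trained (0.03 and 0.15 without the library that stood apart). Glycolysis had 8 of 18 higher and 0 lower, Pgk1 (phosphoglycerate kinase) at 0.17, but 5 higher and 2 lower with equal-sum scaling and 5 higher without any of 7 libraries (trained females 1, 3 and 4, WT male 3 and WT females 1, 2 and 3). After GC and length correction 5 glycolysis genes were higher and 1 lower. The proteasome had 11 of 42 higher and 0 lower (10 and 1 with that correction), with Psmd8 at 0.23. The chaperonin and prefoldin list had 6 of 14 higher and 0 lower (5 and 0), with Cct5 at 0.18. Among antioxidant enzymes 10 of 27 were higher and 2 lower (7 and 2 with the correction), with 6 higher without trained female 2, trained female 3 or WT female 3. Prdx3, a mitochondrial peroxidase, differed by 0.21, whereas catalase (Cat) was lower in all 8 trained libraries (13.99 to 17.43 FPKM against 18.27 to 23.84 FPKM, log2 -0.37). Cat lies on chromosome 2 and was at 15.38 to 17.13 [16.86] FPKM in the untrained arm labelled KO as well.

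Matrix and basement membrane genes were lower as a group. Of 27 tested collagens, laminins and related genes, 13 were lower and 1 higher, with a median of -0.19, and 10 lower and 1 higher after GC and length correction. With animal number as a covariate 4 were lower and 0 higher. Col4a2, a chain of basement membrane collagen, ranged from 5.49 to 6.84 FPKM (median 6.22) in the arm labelled WT and from 4.37 to 5.36 FPKM (median 4.94) in the trained arm. The arms did not overlap (log2 -0.29, adjusted p = 0.00147), and the untrained arm labelled KO had a median of 5.16 [5.095] FPKM. Agrn, the proteoglycan agrin, differed by -0.22 (adjusted p = 0.00224). Of 18 receptors and relatives of thrombospondins 2 were higher, Thbs1 and Thbs2 themselves. After GC and length correction 2 were higher and 7 lower, and with animal number as a covariate 2 were higher and 0 lower. Without these adjustments 8 were lower. The lower ones included the synaptic adhesion protein Nlgn1 (log2 -0.33) and Cacna2d1 (log2 -0.26), which encodes the α2δ-1 subunit of calcium channels known as a thrombospondin receptor at synapses. Cacna2d1 ranged from 36.23 to 45.14 FPKM in the arm labelled WT, 26.88 [30.37] to 45.05 FPKM in the untrained arm labelled KO and 29.75 to 36.64 FPKM in the trained arm, so 1 trained library reached the range of the arm labelled WT. Of 16 genes listed as secreted astrocyte synapse factors, 1 was higher (6.25%, against 12.9% of all genes tested) and 0 lower. It was Bdnf, which also stands on the list of delayed activity-regulated genes.

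Channels and receptors of neurons leaned to the lower side. Of 72 potassium channel genes 19 were lower and 5 higher (median -0.06), and of 29 sodium and calcium channel genes 8 were lower and 0 higher (median -0.09). The count of higher potassium channel genes fell to 2 without trained female 1, 3 or 4, WT male 3 or WT female 1 or 4, and 9 of the 16 libraries moved it by over 1.5 times. In females alone 11 potassium channel genes were lower and 12 higher, and 4 sodium and calcium channel genes were lower and 2 higher. After GC and length correction 20 potassium channel genes were lower and 6 higher, and 9 sodium and calcium channel genes were lower and 2 higher. Kcnj11, the pore of the ATP-sensitive potassium channel, ranged from 12.7 to 19.4 FPKM in the arm labelled WT and from 9.85 to 12.8 FPKM in the trained arm (log2 -0.53). It was at 8.86 [9.75] to 14.2 FPKM in the untrained arm labelled KO. Kcnip3, a calcium-binding partner of Kv4 channels on chromosome 2, was lower in every trained library (log2 -0.34), and the leak channel gene Kcnk1 was higher in every one (log2 0.30). The voltage-gated calcium channel gene Cacna1e differed by -0.31 (adjusted p = 0.00241). All 3 called genes among 7 metabotropic glutamate receptors were lower (list median -0.19; 4 lower after GC and length correction). Grm3 ranged from 26.57 to 37.17 FPKM and from 15.24 to 25.40 FPKM, without overlap (log2 -0.53, adjusted p = 0.000192), and Grm5 and Grm7 differed by -0.29 and -0.19. The animal labelled WT with a number over 1000 lay below all 7 others of its arm in 4 of the 7 genes and above in 0. Over all genes tested the share below was 11.2%. That animal had 26.57 FPKM of Grm3 (others 28.38 to 37.17) and 20.36 FPKM of Grm5 (others 22.07 to 30.33), while its Grm7 was inside the others' range. Among 24 ionotropic glutamate receptor genes 6 were lower and 0 higher, 5 and 0 with that correction, and 2 were lower without trained female 3. Gria3 (log2 -0.12, adjusted p = 0.0364) and Grik5 (log2 -0.20, adjusted p = 0.0288) were close to the threshold. Gria3 was not called after GC and length correction (adjusted p = 0.165) or in 10 of 16 fits that left a library out (up to 0.076, without trained female 3). Grik5 was not called without trained female 2, trained female 4, WT male 3 or WT male 4 (0.0509 to 0.0584). Of 17 genes for GABA receptors and gephyrin, 1 was higher and 3 were lower, and with the correction 1 was higher and 0 were lower. The higher one was Gabra2, the α2 subunit, at 8.80 to 12.3 FPKM in the arm labelled WT and 12.2 to 22.7 FPKM in the trained arm (log2 0.67, adjusted p = 0.000123). It was also spread upward in the untrained arm labelled KO (9.27 to 25.3 FPKM).

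Adhesion genes leaned to the lower side as well. Of 43 trans-synaptic adhesion genes 15 were lower and 2 higher (median -0.09), and of 73 cadherins and protocadherins 14 were lower and 2 higher (median -0.12), with 6 lower without WT female 3. After GC and length correction each of these lists had 13 lower and 2 higher. In females alone 6 adhesion genes were lower and 4 higher, and 3 cadherins and protocadherins were lower and 4 higher. Nlgn1, a postsynaptic adhesion protein, ranged from 15.28 to 19.94 FPKM and from 11.15 to 14.95 FPKM, without overlap. Tenm1, a teneurin, differed by -0.55 and also showed no overlap. Unc13a, which primes vesicles for release, ranged from 51.93 to 59.27 FPKM and from 42.96 to 50.69 FPKM (log2 -0.23), and Pclo, a scaffold of the active zone, differed by -0.29. The lists of release genes and synaptic scaffolds were near the background: 6 of 47 presynaptic genes were lower and 3 higher, and 2 of 24 postsynaptic scaffolds were lower, Dlgap2 (log2 -0.29) among them, and 1 higher. Axon guidance had 12 of 64 lower and 5 higher (11 and 7 after GC and length correction), with Slit2, a secreted repellent, at -0.24. With animal number as a covariate these lists had fewer calls: 5 potassium channel genes were lower, 2 metabotropic glutamate receptor genes (Grm3 and Grm7), and 1 gene each of the adhesion and cadherin lists.

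**Figure D4:**
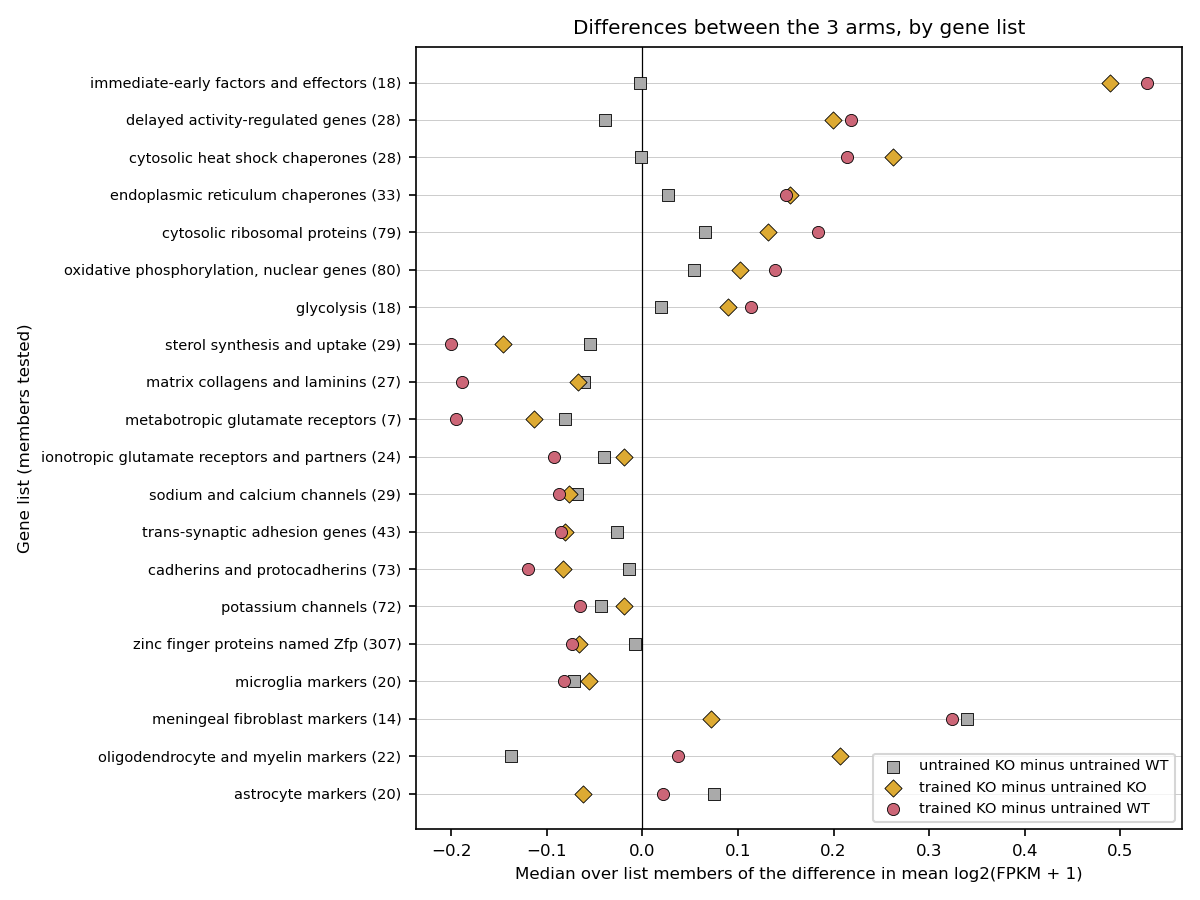
Median log2 difference (horizontal axis) of 20 gene lists in 3 contrasts: trained labelled KO minus untrained labelled WT, untrained labelled KO minus untrained labelled WT, and trained minus untrained labelled KO. For the immediate-early, heat shock and sterol lists the difference between the arms labelled KO (0.49, 0.26 and -0.15; 0.44, 0.25 and -0.17 without the library that stood apart) is larger than that between the untrained arms (0.00, 0.00 and -0.06; 0.08, 0.00 and -0.02 without it), and for meningeal markers the latter (0.34; 0.28) is the larger. The arms labelled KO differ in training, food access and animal number, which these medians cannot separate.

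Regulators of transcription and splicing differed in single genes more than as groups, except for zinc finger proteins. Of 307 genes named Zfp, 66 were lower and 15 higher (median -0.07), and 61 lower and 31 higher after GC and length correction. Zfp810 ranged from 4.59 to 7.59 FPKM in the arm labelled WT and from 2.82 to 4.03 FPKM in the trained arm (log2 -0.57). Zfp941 differed by -0.78, both without overlap. Srsf5, a splicing factor, ranged from 96.81 to 130.6 FPKM (median 113.9) and from 65.81 to 75.66 FPKM (median 71.15). Every trained library lay far below those labelled WT, and the log2 difference was -0.66 (adjusted p = 1.70e-07). The median of the untrained arm labelled KO lay between (98.16 [96.1] FPKM). Its range, 84.49 to 123.1 FPKM, overlapped that of the arm labelled WT. The animal labelled WT with a number over 1000 had 104.2 FPKM of Srsf5, and with animal number as a covariate the difference was -0.56 (adjusted p = 0.0038). The spliceosome list as a whole had 6 of 59 lower and 3 higher (10 lower without WT male 4, 8 higher without trained male 4), and 11 lower and 4 higher after GC and length correction. Chromatin modifiers had 16 of 99 lower and 11 higher (14 and 15 with the correction). Among them Tet2, which oxidises methylcytosine, differed by -0.39, the methyltransferase Kmt2b by -0.29 and the histone H4 methyltransferase Setd8 by 0.37, each without overlap.

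Clock and metabolic hormone genes pointed to no single direction. Of 22 clock genes 5 were higher and 3 lower. Ciart, a repressor of the clock, ranged from 17.99 to 36.55 FPKM in the arm labelled WT and from 12.97 to 21.35 FPKM in the trained arm (log2 -0.72), and Nr1d1, the repressor REV-ERBα, differed by -0.39 without overlap. Arntl, the activator BMAL1, was higher (log2 0.21), as was Nfil3, a repressor (log2 0.40, 5.83 to 6.44 FPKM against 3.55 to 5.76 FPKM). Time of day at collection is not given in the sources used here. Of 26 targets of glucocorticoids and fasting, 5 were higher and 6 lower. Plin4, a lipid droplet protein, ranged from 0.314 to 6.08 FPKM and from 3.78 to 9.57 FPKM (log2 1.34), and its highest library labelled WT was the animal with a number over 1000. Klf15 (log2 -0.42) and Pdk4 (log2 -0.32), both induced by glucocorticoids or fasting in other tissues, were lower.

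The largest single differences belonged mainly to genes that differed already between the untrained arms, many on the chromosomes of Thbs1 and Thbs2. Pla2g4e, a phospholipase on chromosome 2, ranged from 3.56 to 5.20 FPKM in the arm labelled WT, 11.1 [15.9] to 19.3 FPKM in the untrained arm labelled KO and 14.9 to 18.2 FPKM in the trained arm (log2 1.65). Rnps1, a splicing and exon junction factor on chromosome 17, ranged from 41.58 to 56.03 FPKM in the arm labelled WT and from 14.23 to 19.49 FPKM in the trained arm (log2 -1.44). Its 8 untrained libraries labelled KO lay between 17.86 [18.09] and 19.56 FPKM. Others of this kind on chromosome 17 were A930015D03Rik (log2 1.69), D330041H03Rik (1.01), Pkmyt1 (-0.86), Zfp40 (-0.85), Zfp758 (-0.58) and Zfp760 (0.56). The MHC class I genes there went in both directions. H2-Bl differed by 1.77, H2-T24 by 0.69 and H2-T23 by -0.77, and C920025E04Rik by 1.13, all in a family of similar sequences among which reads can be misassigned. Gm8801, a pseudogene on chromosome 17, was listed at 0 in all 8 libraries labelled WT and at 1.89 to 2.83 FPKM in the trained arm. B2m, the light chain of MHC class I on chromosome 2, differed by -0.32, and Cd59a, an inhibitor of complement on chromosome 2, by -0.59.

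The share of genes called was highest on chromosome 17 (35.2%) and chromosome 2 (27%), against 20.9% to 26.3% on the other autosomes and the X chromosome, and 0 of 4 genes on the Y chromosome were called. Within 10 Mb of Thbs1, 64 of 128 tested genes were called (50%), at 10 to 20 Mb 39 of 100, and at 20 to 30 Mb 16.9%. Around Thbs2 the share was 40.2% within 10 Mb, 34.2% at 10 to 20 Mb, 37.7% at 20 to 30 Mb, 35.4% at 30 to 60 Mb and 25% beyond 60 Mb (16 of 64 genes). Over the other chromosomes it was 23.6% (2593 of 10974). Of the 159 called genes with a log2 difference of at least 0.5 in size, 51 had more than 75% of it already in the untrained arm labelled KO, and 29 of these 51 lay on chromosomes 2 and 17. For 48 genes under 25% of the difference was there, and 4 of these lay on the pair of chromosomes. The other 60 fell between. Without the untrained library that stood apart the counts were 54, 42 and 63, with 32 of the 54 and 4 of the 42 on that pair.

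**Figure D5:**
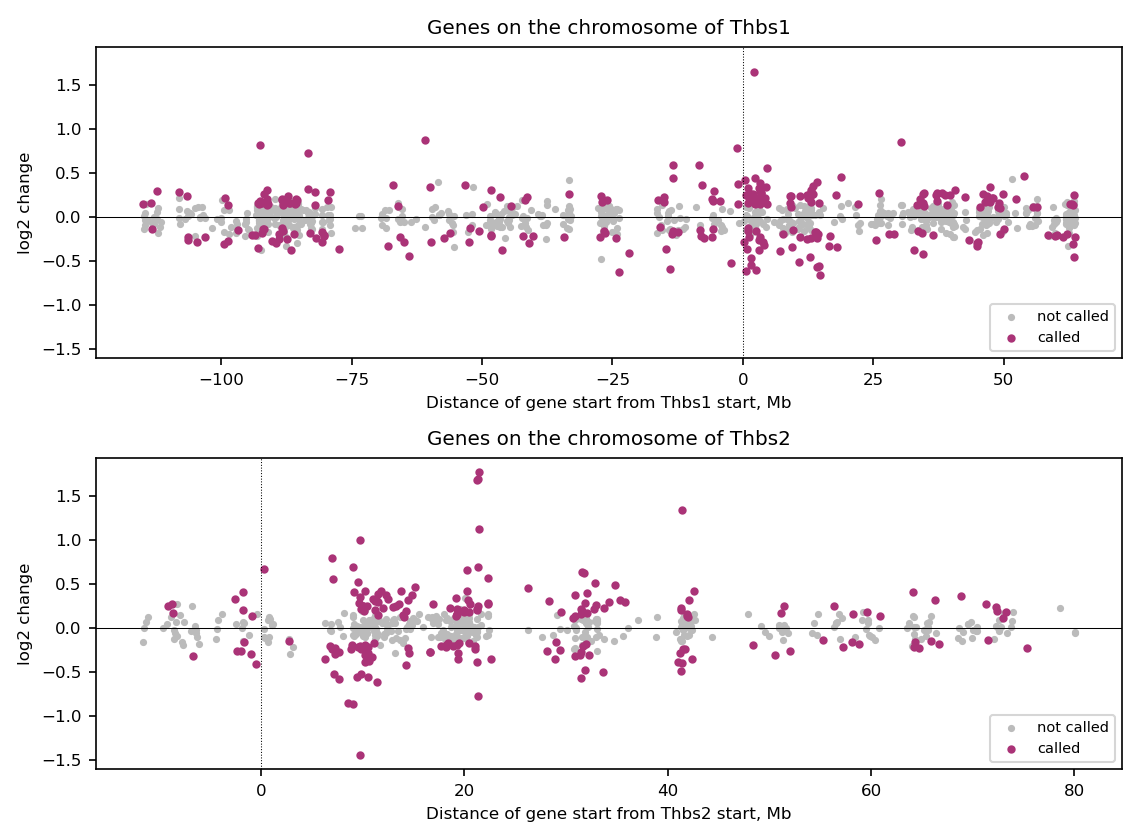
Log2 difference (vertical axis) of each tested gene on chromosomes 2 and 17 against its distance in Mb from Thbs1 or Thbs2 (horizontal axis), with called genes marked. Around Thbs1, called genes with large differences of both signs gather near the targeted gene, and 50% of genes within 10 Mb are called. Around Thbs2, called genes of at least 0.5 in size number 13 of 112 tested within 10 Mb. Farther out there are 2 of 187 at 10 to 20 Mb and 8 of 77 at 20 to 30 Mb. At 30 to 60 Mb there are 5 of 158.

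Some large differences of the same kind lay on other chromosomes. Cep83os, an antisense transcript on chromosome 10, ranged from 9.92 to 13.04 FPKM in the arm labelled WT, 4.76 [4.79] to 6.66 FPKM in the untrained arm labelled KO and 3.38 to 4.36 FPKM in the trained arm (log2 -1.35). The strand setting of the counting is not given in the sources used here, so its reads and those of its partner gene cannot be told apart with certainty. B230217O12Rik on chromosome 19 (log2 -1.12), Gm765 on chromosome 6 (-1.05), Pop4, a subunit of ribonuclease P, on chromosome 7 (-0.80) and 2010315B03Rik on chromosome 9 (-0.78) were also low in both arms labelled KO. Wwox, an oxidoreductase gene on chromosome 8, was higher (log2 1.20), but its arm labelled WT ran from 9.14 to 37.5 FPKM, the top being 1 female. Mir124a-2 (log2 -0.76), Utp14b (-0.75) and Ipw (-0.80) were also among the lowest 15. Thbd, the endothelial receptor thrombomodulin (log2 0.85), and Ptgds stood among the highest 15, and both lie on chromosome 2.

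Markers of cell types other than neurons were followed to show what moves beside these results. Meningeal fibroblast markers were higher in 8 of 14 tested genes and lower in 0, with a median of 0.32, and their sum ranged from 441.3 to 701.7 FPKM in the arm labelled WT, 422.5 to 1227 FPKM in the untrained arm labelled KO and 736.8 to 1215 FPKM in the trained arm. Most of that sum is Ptgds, prostaglandin D synthase, at 400.6 to 650.3 FPKM in the arm labelled WT and 682.9 to 1142 FPKM in the trained arm (log2 0.81). Fmod, a matrix proteoglycan, ranged from 2.39 to 5.30 FPKM and from 5.40 to 8.84 FPKM (log2 0.73). Between the untrained arms the median was already 0.34 (0.28 without the library that stood apart). The count of higher genes was 3 without trained male 1, female 2 or female 4 or WT male 1. The defining collagen Col3a1 and the factor Foxc1 stayed under the filter of a mean of 1 FPKM. The part of meningeal tissue in the matrix differences was not tested.

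Microglial markers were lower in 8 of 20 genes and higher in 1, with a median of -0.08, and their sums overlapped (332.7 to 380.0 FPKM labelled WT, 316.0 to 347.6 FPKM trained). Trem2, a receptor on microglia encoded on chromosome 17, was lower in every trained library (log2 -0.50) and was low in the untrained arm labelled KO too (4.50 to 6.90 FPKM against 6.46 to 10.3 FPKM labelled WT). P2ry12 and Siglech each differed by -0.30. Endothelial markers were higher in 4 of 22 (18.2%, against 12.9% of all genes tested) and lower in 0, with Ly6c1 at 0.53. With animal number as a covariate 0 of them were called. Markers of astrocytes, known producers of thrombospondins, were split at 3 higher and 3 lower of 20, with the gap junction gene Gjb6 at 0.32 and the factor Sox9 at -0.29, and their sums overlapped (1979 to 2347 FPKM and 1981 to 2524 FPKM). That split was not stable: 1 was lower without trained female 1 or 3, 5 were lower without trained male 4, and equal-sum scaling gave 1 higher and 5 lower. Oligodendrocyte markers had 1 of 22 lower, Opalin (log2 -0.63), and 1 higher. Interneuron markers had 6 of 24 higher and 0 lower, with Pvalb, which marks fast-spiking cells, at 0.47, but 3 higher and 2 lower after GC and length correction and 5 higher and 2 lower with equal-sum scaling, and 3 higher when any of 7 libraries was left out. Pvalb had a log2 difference of -0.14 with animal number as a covariate. Nefh, the heavy neurofilament of large axons, differed by 0.59 (adjusted p = 0.00336). The sum of cortical layer markers overlapped between the arms (898.0 to 1084 FPKM and 891.5 to 1129 FPKM). Choroid plexus markers gave 0 calls, although trained female 1 had a sum of 102.1 FPKM against at most 43.95 FPKM elsewhere.

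The sexes were compared in an arm by sex term. It was called for 22 of 12572 genes, 2023 at an unadjusted p under 0.05, and none of the genes with values above was among them. Xist, the RNA that silences an X chromosome in females, had the smallest p, with a log2 difference of -0.55 in females. Klf10, a transcription factor, differed by -0.67 in females and by 0.08 in males, and the RNA-binding gene Srsf6 by -0.32 and 0.03. In the libraries of males alone 183 genes were called between the arms, in those of females alone 3232. That gap in number is no test of a difference between the sexes, and the count of the arm by sex term ranged from 0 to 341 as single libraries were left out.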

How the data were processed

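Poly(A) RNA of 24 mice was sequenced from stranded libraries, 1 per animal, per the labels' protocols. Per the submitters' processing notes, FastQC 0.11.7, Trimmomatic 0.38, STAR 2.5.3a and featureCounts of Subread 1.6.3 were used with the mm10 build. The deposited table gives FPKM per gene, computed by the authors, in columns whose header carries a word for counts. Within a gene these FPKM rise in steps of 1 read, which gave back the reads of 15229 genes (99.9871% of values whole within 0.01 read). Gene lengths were read from the same steps. Of 15232 genes, 15165 matched RefSeq GRCm38.p6, and GC content (GENCODE M21 transcripts) was found for 96.4% of tested genes.

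Genes with a mean of at least 1 FPKM over the 24 libraries were tested on log2(FPKM + 1) with limma 3.58.1 in R 4.3.3 (lmFit, eBayes with trend=TRUE), in the 8 trained libraries labelled KO and the 8 untrained labelled WT, with sex as a covariate, Benjamini-Hochberg adjustment over 12572 genes and a threshold of 0.05. Fold changes on this scale understate the change of low genes. The p-values weigh the difference between the arms against the spread between animals that is left after the sex term. Tested on simulated data of 12572 genes with 200 changed, this comparison recovered 200 and made 10 other calls. Recovery of log2 differences as small as the medians of the called genes was not tested. Gene lists are described by counts and medians, without a test of the list. Python 3.11.15, numpy 2.4.6, pandas 2.3.3 and matplotlib 3.10.9 were used.

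By rule the text names the targeted genes, the called genes with the 15 largest log2 differences in each direction (sign shared by both sexes) and up to 6 called members with the smallest p from each of 54 lists (53 with tested members). A selection of these is given, and some are not reported here. Genes outside the rule were chosen after their values were seen: those named for a motif, Ier2, Egr4, and the 3 genes of the arm by sex term. The members, lists and tests were chosen with earlier results of these data known. The alternatives tried were no filter, a mean of at least 5 FPKM, a pseudocount of 0.1, median-ratio, equal-sum and quantile scaling, correction for GC and length in 20 bins, all 24 libraries in one fit, animal number over 1000 as a covariate or as a limit, no sex term, each sex alone, limma-voom on recovered reads, array weights, a replicate block, a threshold of 0.01 and each library left out. The covariate fit without the untrained library that stood apart, the same fit with GC and length correction, and the fit of the block's 14 libraries without the block were chosen after seeing the data.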

Additional observations from a re-analysis of the deposited data

Results flagged for a closer look

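Values at the end of a group of 4 libraries of one arm and sex that stood far from the other 3 were looked for in 251 groups. There were 13, against about 1 in 20 groups by chance. In the arm labelled WT, Wwox was at 37.5 FPKM in female 1, Sdf2l1 at 9.23 FPKM in female 4, Zfp40 at 8.85 FPKM and Ipw at 10.5 FPKM in female 3, and Hspa1b at 2.41 FPKM in male 2. In the trained arm, Siglech was at 3.99 FPKM in female 1, Dusp6 at 41.9 FPKM in male 2 and Gjb6 at 40.5 FPKM in male 4. Trained male 3 held 5 of the 13: Uqcrh at 275 FPKM, Rpl37a at 225 FPKM, Dlgap2 at 13.5 FPKM, Nlgn1 at 11.2 FPKM and Agrn at 26.6 FPKM. In that library the short genes Uqcrh and Rpl37a and the gene Agrn were high for their arm, and Dlgap2 and Nlgn1 low. The difference between the arms itself differed between females and males for 22 genes by the test of the arm by sex term.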

How the results depend on the processing

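The 3074 calls (1626 higher, 1448 lower) numbered 2363 to 3418 (1260 to 1850 higher, 1103 to 1568 lower) as each library was left out. They fell to 352 (167 and 185) with animal number over 1000 as a covariate (246 and 245 without the deep untrained library labelled KO) and to 390 (175 and 215) with the GC and length correction added. Animals with numbers over 1000 alone (8 against 1, the lone animal assumed to vary like the others) gave 21 (13 and 8), males alone 183 (84 and 99) and a threshold of 0.01 gave 1426 (774 and 652). With a mean of at least 5 FPKM, where fewer genes are tested, 935 were lower.

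Replicate numbers name different animals in the arms. The correlation of deviations of same-numbered libraries was -0.272 to 0.006 in 7 pairs, so the numbers do not pair them. The replicate block, on 14 libraries, gave 1614 calls (858 and 756), against 2501 (1299 and 1202) in the same libraries without it.

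The 22 genes of the arm by sex term became 13 with median-ratio scaling, 94 with quantile normalization, 618 with array weights and 18 with limma-voom. The count was 0 with GC and length correction (1516 at an unadjusted p under 0.05), 0 with the replicate block (1421) and 0 at a threshold of 0.01, and ranged from 0 to 341 with each library left out (341 without trained male 4, 54 without WT male 3).

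Of 126 genes examined singly, 122 kept direction and side of the threshold in all 16 leave-one-out fits and 0 reversed. The exceptions were Hsp90b1, Dusp1, Gria3 and Grik5. The animal number covariate turned Arc (-0.15), Dusp6 (-0.11), Dusp1 (-0.16) and Pvalb (-0.14). With the GC and length correction added it turned Arc (-0.10), Dusp6 (-0.14), Dusp1 (-0.18), Grm5 (0.049) and Pvalb (-0.24). Without the deep untrained library it turned 0 of them. Animals over 1000 alone turned Dusp1 (-0.077), Hmgcs1 (0.035) and Pvalb (-0.0056). The cause was not tested. Depth limits the low genes, which log2(FPKM + 1) compresses.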
